A study of Arabidopsis thaliana with 26 samples.

Results

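The effect of high light on gene expression in seedlings of Arabidopsis thaliana (thale cress) was compared between 12 and 24 h of exposure. For each gene the light effect was the log2 ratio of high light to growth light at one time, and its change was the light effect at 24 h minus the light effect at 12 h. The comparison used the 8 RNA sequencing libraries whose labels named growth light or high light at 12 or 24 h, of 26 libraries in the series, 2 in each of 4 groups. All 4 groups were whole seedlings of the accession Col-0, 7 days old, kept at 22 °C under continuous growth light of 60 µmol m-2 s-1, and the high light groups were moved to 1200 µmol m-2 s-1 for 12 or 24 h with leaves held at 22 °C. Each growth light group carried the same time label as its high light group, so the change of the light effect is relative to seedlings that aged by the same 12 h. RNA of 25 plants was pooled for each library, and since nothing states that a group's pair of libraries were grown separately, the p-values refer to variation among these libraries alone, which may be technical.

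Light in excess of what photosynthesis can use leads leaves to lower their light-harvesting antennae, to make anthocyanins and other protective pigments, and to produce chaperones and antioxidant enzymes. Jasmonate, a hormone made from fatty acids of the chloroplast membrane, controls defence and growth, and JAZ repressor proteins hold back its targets until the hormone causes them to be degraded by the proteasome. The circadian clock is a loop of morning and evening genes that repress one another, and it keeps running in continuous light.

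The 8 libraries held 23972067 to 29697279 counts assigned to genes, and libraries of one group correlated at 0.992 to 0.994 across genes (log2 scale). Levels below are CPM, counts scaled to a common library total and by the trimmed mean of M-values, and they compare one gene between libraries, not genes with one another. Transcripts of the antenna protein gene LHCB1.3 stood at 9697 to 11020 CPM in the growth light libraries, and all 16 root cell type markers were detected, as whole seedlings would give. In such bulk samples, fewer cells of a type and less RNA per cell cannot be told apart. Library 2 of high light at 24 h had 0.0698% of its counts on chloroplast genes against 0.0202 to 0.0312% in the other 7, and the part of this in the results was not tested.

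Of 21449 genes tested, 1539 had a higher light effect at 24 h than at 12 h and 1626 a lower one, at an adjusted p below 0.05 (quasi-likelihood F-test of edgeR, adjusted by Benjamini and Hochberg, as for every adjusted p here). These were 14.8% of the genes tested, with 7.18% higher and 7.58% lower, and the change was at least 2-fold in 219 of the higher (1.02%) and 492 of the lower genes (2.29%). Scaled by upper quartiles, the test called 1169 higher and 2251 lower, and the median change over all genes was -0.061 on the log2 scale. With genes kept at 1 CPM or more in 2 libraries, it called 1845 higher and 1497 lower, which turns the excess around. The main split moved by more than 1.5 times when single libraries were left out: the higher and lower genes numbered 961 and 981 without library 2 of growth light at 12 h, 870 and 1008 without library 1 of growth light at 24 h, 809 and 801 without library 2 of high light at 12 h, and 882 and 908 without library 1 of high light at 24 h.

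The change lay mainly on the high light side. Between 12 and 24 h, 41.7% of genes changed in high light (20.4% higher, 21.3% lower) and 13.6% changed in growth light (6.24% higher, 7.35% lower). Genes with a higher light effect at 24 h had a median log2 change of 0.55 in high light and of 0.00 in growth light, and their median light effect went from -0.04 at 12 h to 0.52 at 24 h. Genes with a lower one had medians of -0.61 in high light and 0.09 in growth light, and their light effect went from 0.19 to -0.53. Most responses were present at both times: 45.2% of genes differed between the lights at 12 h (24.1% higher, 21.1% lower) and 49.8% at 24 h (26% higher, 23.9% lower). Of these, 3524 genes were raised by high light at both times, 68.3% of those raised at 12 h and 63.3% of those raised at 24 h. A further 3050 were lowered at both times, 67.4% of those lowered at 12 h and 59.6% of those lowered at 24 h. Only 78 genes went from raised at 12 h to lowered at 24 h and 106 the other way, each with a change past the test.

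**Figure D1:**
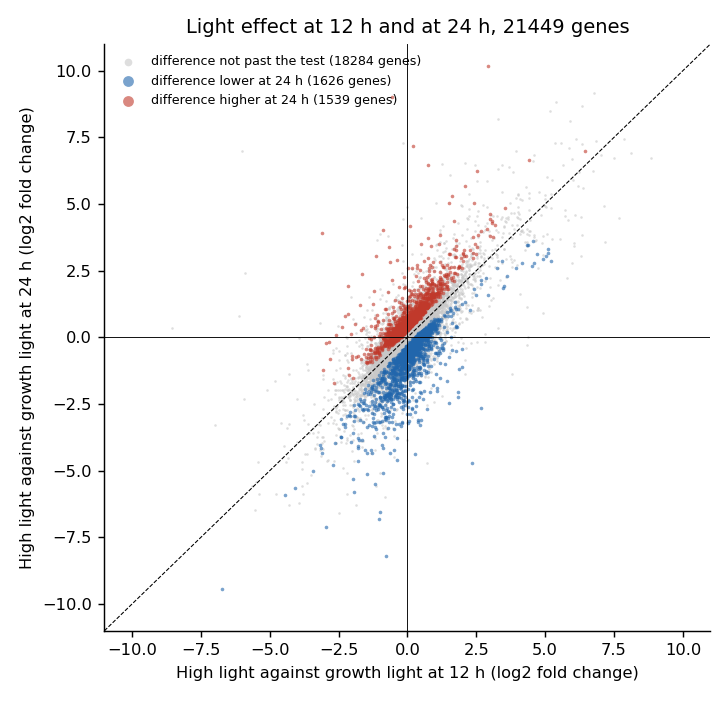
Light effect of each of 21449 genes at 12 h (horizontal axis) and at 24 h (vertical axis), both as log2 of high light over growth light, with the dashed line at equal effects. The 1539 genes with a higher effect at 24 h (red) lie above the line and the 1626 with a lower one (blue) lie below it.

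The genes are described below by 41 lists of pathways, complexes and markers. Lists on one side were jasmonate and the proteasome, where 20 of 27 and 17 of 17 tested genes had a higher light effect at 24 h and none a lower one. Lists on the other side were cytosolic ribosomal proteins, ribosome biogenesis, flavonoid enzymes, the light-harvesting antenna and cell division. The lists were chosen with earlier results known, and their counts are descriptions to be read against the 14.8% of all genes.

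**Figure D2:**
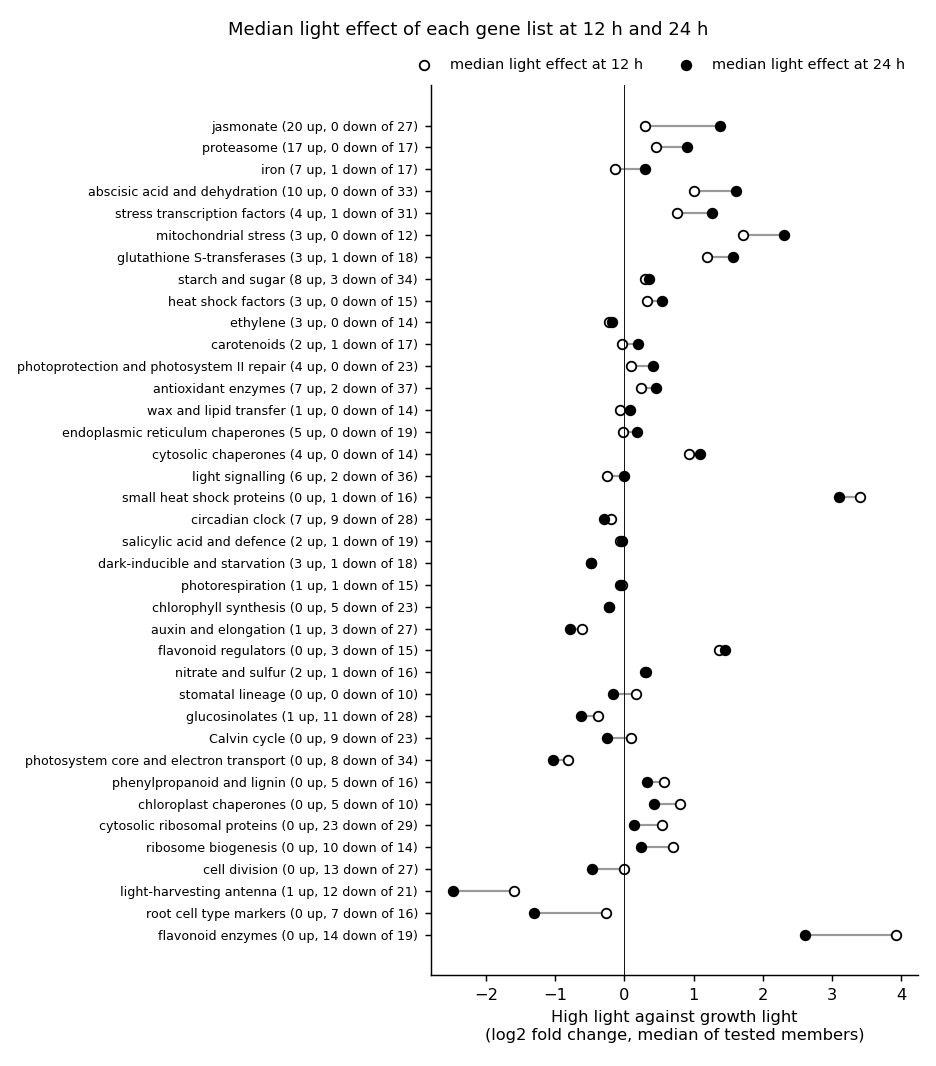
Median light effect of each list with at least 10 tested genes, at 12 h (open points) and at 24 h (filled points), as log2 of high light over growth light, ordered by the median change. The jasmonate median moved up from 0.29 to 1.38 and the flavonoid enzyme median moved down from 3.93 to 2.61.

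Jasmonate genes had the most calls among the hormone lists, all in one direction. Of 28 listed genes 27 were tested, and 20 had a higher light effect at 24 h, with a median change of 0.72 against -0.001 over all genes tested. At 12 h high light had raised 12 of them and lowered 2, and at 24 h it had raised 22. In growth light 3 rose and 5 fell from 12 to 24 h, and in high light 22 rose. The count of 20 was lowest, at 15, without library 2 of growth light at 12 h.

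The biosynthesis genes moved along the whole pathway. LOX2 (AT3G45140), the chloroplast lipoxygenase that starts jasmonate synthesis, stood at 1294 and 1447 CPM in growth light and 2048 and 1573 CPM in high light at 12 h. The 24 h levels were 1005 and 1196 CPM in growth light and 4567 and 4871 CPM in high light. Both 24 h high light libraries lay far above the other 6, whose groups were much closer together. Its light effect rose from 0.40 to 2.1, a change of 1.70 (SE 0.28, adjusted p = 0.000456). AOS (AT5G42650), the allene oxide synthase that acts next, read 341 and 385 CPM in growth light and 456 and 326 CPM in high light at 12 h, against 265 and 315 CPM in growth light and 745 and 759 CPM in high light at 24 h. The lights overlapped at 12 h and were apart at 24 h, and the change was 1.27 (SE 0.19, adjusted p = 0.000248).

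AOC2 (AT3G25770), an allene oxide cyclase, was at 266 and 323 CPM in growth light and 642 and 500 CPM in high light at 12 h. At 24 h it was at 188 and 193 CPM in growth light and 781 and 723 CPM in high light. It was already higher in high light at 12 h, with growth light lower again at 24 h, and its change was 1.03 (SE 0.19, adjusted p = 0.00113). Its relative AOC1 (AT3G25760) went from a light effect of -0.47 to 1.0, a change of 1.47 (adjusted p = 0.000794). The peroxisomal steps followed the same direction, with changes of 0.63 for OPR3 (AT2G06050), the reductase that acts after the cyclases, 0.70 for OPCL1 (AT1G20510), which activates its product, and 0.78 for ACX1 (AT4G16760), an acyl-CoA oxidase of the beta-oxidation that shortens it. ACX1 stood at 111 and 109 CPM in growth light and 209 and 184 CPM in high light at 12 h. Levels at 24 h were 133 and 134 CPM in growth light and 416 and 402 CPM in high light, with no overlap between the lights at either time. LOX3 (AT1G17420), another lipoxygenase of the pathway, read 17.2 and 20.7 CPM in growth light and 37.3 and 25.98 CPM in high light at 12 h, then 12.0 and 14.6 CPM in growth light and 118 and 93.4 CPM in high light at 24 h. Its light effect went from 0.74 to 2.99, the highest rise among these enzymes (2.24, SE 0.21, adjusted p = 1.56e-06).

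Among the repressors, JAZ6 (AT1G72450) had a change of 1.11, JAZ2 (AT1G74950) of 0.72 and JAZ12 (AT5G20900) of 0.47, and all 3 stayed past the threshold whichever library was left out. JAZ1 (AT1G19180) was raised at both times, by 1.43 and 1.68, and its change of 0.26 did not pass the test (adjusted p = 0.416). JAZ10 (AT5G13220) was similar, with 0.82 and 0.97 and a change of 0.15 (adjusted p = 0.797). The outputs VSP1 and VSP2, vegetative storage proteins that are standard jasmonate markers, also had a higher light effect at 24 h. VSP1 (AT5G24780) was at 21.7 and 25.4 CPM in growth light and 77.0 and 73.4 CPM in high light at 12 h. The 24 h levels were 35.3 and 22.0 CPM in growth light and 712 and 470 CPM in high light. Its light effect went from 1.68 to 4.37, a change of 2.69 (SE 0.31, adjusted p = 1.68e-05). VSP2 (AT5G24770) had a change of 1.64 (SE 0.31, adjusted p = 0.00134), and since the sequences of the pair are close, how reads were divided between them is uncertain.

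**Figure D3:**
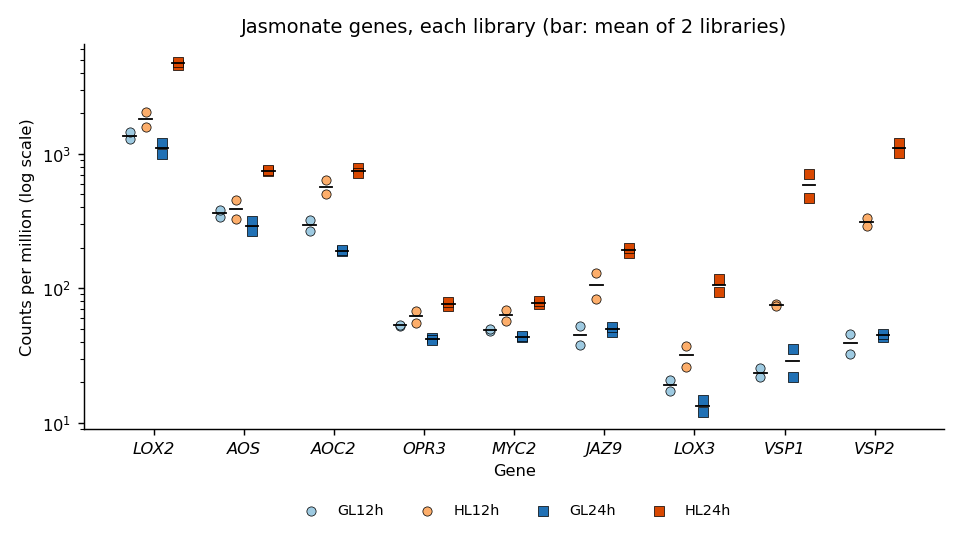
Level of 9 jasmonate genes (LOX2, AOS, AOC2, OPR3, MYC2, JAZ9, LOX3, VSP1 and VSP2) in each of the 8 libraries, in CPM on a log axis, with a bar at the mean of 2 libraries. For LOX2 the 24 h high light points lie at 4567 and 4871 CPM and the other 6 lie between 1005 and 2048 CPM.

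Proteasome genes, which encode the protease complex that degrades ubiquitin-tagged proteins, were all raised by high light at 12 h and raised further at 24 h. All 17 listed genes were above growth light at both times, and their median light effect went from 0.45 to 0.91. The change passed the test in 17 of 17, and in 15 without library 1 of high light at 24 h. Growth light itself changed none of the 17 between 12 and 24 h. PAD1 (AT3G51260), an alpha subunit of the core, read 96.2 and 98.2 CPM in growth light and 134 and 124 CPM in high light at 12 h, and 97.9 and 94.2 CPM in growth light and 221 and 192 CPM in high light at 24 h. The growth light libraries of both times lay together, with high light at 12 h above them and high light at 24 h above both, and the change was 0.70 (SE 0.09, adjusted p = 6.47e-05). PAB1 (AT1G16470), another alpha subunit, changed by 0.71 (SE 0.10, adjusted p = 9.23e-05) and PBG1 (AT1G56450), a beta subunit, by 0.65. In the regulatory particle, RPT2A (AT4G29040), an ATPase of its base, changed by 0.58 (SE 0.09, adjusted p = 0.000256) and RPN1A (AT2G20580), a scaffold subunit, by 0.44 (SE 0.08, adjusted p = 0.00143). A wider set was taken after the values were seen, as genes whose annotated product names the proteasome, without inhibitors and assembly factors. It had 27 of 39 tested genes higher and 0 lower. PAB1 was down to 86.2 and 83.2 CPM by 48 h of high light, from 149 and 131 CPM at 24 h.

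Cytosolic ribosomal protein genes had the opposite course. High light had raised all 29 at 12 h, with a median of 0.54, and held 6 of them up at 24 h, with a median of 0.14. The change was lower in 23 and higher in 0. In high light 28 of the 29 fell between 12 and 24 h and in growth light none changed. AT3G09630, which encodes a protein of the large subunit, read 419 and 395 CPM in growth light and 588 and 617 CPM in high light at 12 h, and 439 and 422 CPM in growth light and 426 and 460 CPM in high light at 24 h. The lights were apart at 12 h and overlapped at 24 h, with a light effect that went from 0.57 to 0.04 (change -0.53, SE 0.10, adjusted p = 0.00121). RPL23AA (AT2G39460) stood at 284 and 306 CPM in growth light and 453 and 456 CPM in high light at 12 h. At 24 h it was at 342 and 316 CPM in growth light and 344 and 344 CPM in high light. Its change was -0.56 (SE 0.11, adjusted p = 0.00251), and at 48 h it was below growth light, at 219 and 234 CPM against 266 and 273 CPM. RPL10C (AT1G66580) was an exception, raised by 0.89 at 12 h and 0.99 at 24 h, with a change of 0.10 that did not pass the test (adjusted p = 0.681). The 23 calls became 15 or 12 without library 1 or 2 of growth light at 12 h, 12 without library 1 of growth light at 24 h and 12 without library 2 of high light at 12 h. A wider set of nuclear genes annotated as ribosomal proteins was chosen after the values were seen. It left out products that name the chloroplast, plastid or mitochondria, though organellar ones without such a name may remain. Of these, 143 of 341 tested were lower and 3 higher.

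Genes for building ribosomes moved with them. FIB2 (AT4G25630), a fibrillarin of the nucleolus, was at 99.9 and 89.3 CPM in growth light and 177 and 196 CPM in high light at 12 h. Levels at 24 h were 90.66 and 83.4 CPM in growth light and 106 and 113 CPM in high light. High light stayed above growth light at both times but by less, and the change was -0.65 (SE 0.15, adjusted p = 0.00587). NUC1 (AT1G48920), the main nucleolin, changed by -0.44 and APUM24 (AT3G16810), a nucleolar RNA-binding protein, by -0.46. In the list, 10 of 14 genes were lower, 0 higher, and the median light effect went from 0.70 to 0.24. High light had raised all 14 at 12 h and still raised 11 of them at 24 h. The 10 lower calls became 3 without library 2 of growth light at 12 h, 5 without library 1 of growth light at 24 h, 4 without library 2 of high light at 12 h, 5 without library 1 of high light at 24 h and 6 without library 2 of high light at 24 h.

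**Figure D4:**
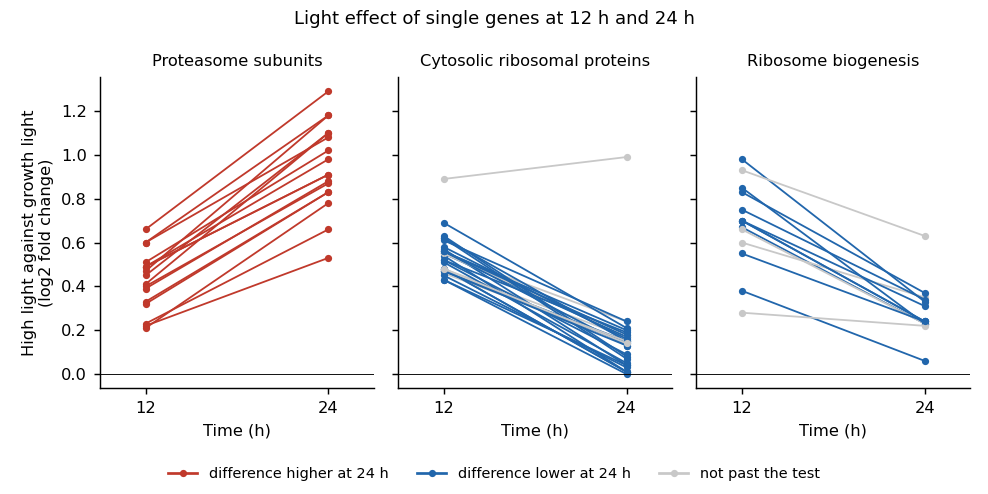
Light effect at 12 and 24 h (log2 of high light over growth light) for each gene of the proteasome, cytosolic ribosomal protein and ribosome biogenesis lists, 1 line per gene. All 17 proteasome lines slope up. The ribosomal protein and ribosome biogenesis lines start above 0, and their medians at 24 h are 0.14 and 0.24.

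The promoters of both complexes share a short motif although they moved in opposite directions, so 1 of each is printed. The letters TGGGC, the core of an element known from promoters of ribosomal protein genes, were searched on both strands in the 250 bases before the annotated start of 27437 protein-coding genes (RefSeq annotation of build TAIR10.1). They were found in 22.7% of all promoters, in 10 of 17 proteasome promoters (58.8%), in 21 of 29 ribosomal protein promoters (72.4%) and in 9 of 14 ribosome biogenesis promoters (64.3%). The AAACCCTA element, searched in the same way with the first 50 transcribed bases added, was present in 6.22% of all windows, in 14 of 29 ribosomal protein windows (48.3%), in 9 of 14 ribosome biogenesis windows (64.3%) and in 0 of 17 proteasome windows. Without those 50 bases it was in 4.49% of all promoters, in 4 of 29 (13.8%), in 3 of 14 (21.4%) and in 0 of 17. A match describes the letters and is not evidence of binding. Shown are the member of each list with the largest change among those past the test whose window holds TGGGC, with the matches in capitals and overlapping ones joined. They are PAD1 at chr3:19030676-19030925 on the plus strand, with 3 matches, and AT3G09630 at chr3:2953443-2953692 on the plus strand, with 4 matches.
PAD1: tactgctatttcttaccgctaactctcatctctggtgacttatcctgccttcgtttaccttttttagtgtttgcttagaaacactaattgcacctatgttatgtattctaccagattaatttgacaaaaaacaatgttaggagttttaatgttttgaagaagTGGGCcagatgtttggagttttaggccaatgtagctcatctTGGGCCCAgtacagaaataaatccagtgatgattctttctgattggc
AT3G09630: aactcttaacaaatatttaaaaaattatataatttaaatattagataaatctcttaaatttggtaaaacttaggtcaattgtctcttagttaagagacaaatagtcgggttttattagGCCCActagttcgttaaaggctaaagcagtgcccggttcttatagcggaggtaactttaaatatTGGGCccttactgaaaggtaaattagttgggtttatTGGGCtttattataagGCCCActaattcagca

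The photosynthetic antenna, the pigment proteins that collect light, was lowered more deeply at 24 h. Of 21 antenna genes 18 were below growth light at 12 h and 18 at 24 h, and the median light effect went from -1.59 to -2.48. The change was lower in 12 and higher in 1, and 9 of the 21 rose in growth light over the same hours. LHCA1 (AT3G54890), of the photosystem I antenna, read 2294 and 2288 CPM in growth light and 893 and 773 CPM in high light at 12 h, and 2748 and 2918 CPM in growth light and 471 and 422 CPM in high light at 24 h. Growth light moved up and high light moved down, without overlap, for a change of -1.21 (SE 0.19, adjusted p = 0.000376). LHCB3 (AT5G54270), of the photosystem II antenna, changed by -1.13 (adjusted p = 0.000983). LHCB1.4 (AT2G34430), one of several copies of the main antenna protein of photosystem II, was at 1322 and 1262 CPM in growth light and 13.8 and 10.5 CPM in high light at 12 h. The 24 h levels were 1496 and 1578 CPM in growth light and 3.18 and 1.26 CPM in high light. The light effect of -6.73 became -9.45 (change -2.72, SE 0.36, adjusted p = 6.47e-05), while that of its copy LHCB1.3 (AT1G29930) went from -1.78 to -2.48 (change -0.70, SE 0.16, adjusted p = 0.00636). Reads of such near-identical copies may have been divided between them, so single copies are uncertain. The 1 gene that moved up, LHCB7 (AT1G76570), was raised by high light at both times, and its change of 0.44 lost the call without library 1 of growth light at 12 h or library 2 of high light at 12 h (0.34 with an adjusted p of 0.0642 without the latter).

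Photosystem and carbon fixation genes were lowered less and with less stable counts. In the photosystem core 8 of 34 genes had a lower effect, among them PSAF (AT1G31330, -0.75) and PSAN (AT5G64040, -0.77), subunits of photosystem I. That count was 4 without library 1 of growth light at 12 h, library 2 of growth light at 24 h or library 1 of high light at 12 h, 5 without library 1 of high light at 24 h, and 17 with upper-quartile scaling. In the Calvin cycle 9 of 23 were lower, and 3 without any of the same 4 libraries. RBCS1B (AT5G38430), a small subunit of Rubisco with close copies, stood at 1777 and 1954 CPM in growth light and 2258 and 2154 CPM in high light at 12 h. At 24 h it was at 1433 and 1716 CPM in growth light and 746 and 962 CPM in high light. The high light libraries lay above growth light at 12 h, where the light effect of 0.24 did not pass the test (adjusted p = 0.16), and below it at 24 h. The change was -1.12 (SE 0.19, adjusted p = 0.000663). PORB (AT4G27440), which makes chlorophyllide in light, changed by -0.77 (adjusted p = 0.00476) from a light effect of -1.56. PIF4 (AT2G43010), a transcription factor that promotes elongation, was at 42.9 and 46.2 CPM in growth light and 15.1 and 15.6 CPM in high light at 12 h. Levels at 24 h were 26.3 and 30.3 CPM in growth light and 1.02 and 1.95 CPM in high light. Its level in high light was back at 17.2 and 14.8 CPM at 48 h, and the change between 12 and 24 h was -2.70 (SE 0.31, adjusted p = 1.41e-05).

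Flavonoid and anthocyanin genes had a smaller light effect at 24 h although their levels in high light were higher than at 12 h. All 19 enzymes of the list were raised at both times, with a median light effect of 3.93 at 12 h and 2.61 at 24 h. The change was lower in 14 and higher in 0, and in 9 lower without library 2 of growth light at 24 h. From 12 to 24 h, 18 of the 19 rose in high light, with a median of 0.62, and 17 rose in growth light, with a median of 1.68. DFR (AT5G42800), the reductase that commits the pathway to anthocyanins, read 11.03 and 15.5 CPM in growth light and 531 and 464 CPM in high light at 12 h, and 104 and 152 CPM in growth light and 930 and 934 CPM in high light at 24 h. Its level thus rose in both lights, by 3.28 in growth light and by 0.91 in high light (log2). The light effect went from 5.23 to 2.86 (change -2.37, SE 0.29, adjusted p = 2.99e-05). In growth light DFR had been at 86.7 and 45.1 CPM at 0.5 h and 87.6 and 95.3 CPM at 6 h. The 12 h level was the lowest of its growth light course, so the large effect at 12 h is relative to a low reference. LDOX (AT4G22880), the next enzyme, changed by -1.97 (adjusted p = 0.000132), and UGT79B1 (AT5G54060), which adds a sugar to anthocyanins, by -1.96. PAP1 (AT1G56650), the MYB factor that switches on the late enzymes, was at 6.94 and 7.83 CPM in growth light and 97.7 and 81.4 CPM in high light at 12 h. The 24 h levels were 10.1 and 16.5 CPM in growth light and 65.2 and 66.2 CPM in high light. In contrast to DFR its level in high light was lower at 24 h, and the change was -1.29 (SE 0.27, adjusted p = 0.00297). PAL1 (AT2G37040), which feeds phenylalanine into the pathway, changed by -0.77 (adjusted p = 0.00296).

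Of 28 clock genes 7 had a higher and 9 a lower light effect at 24 h, and 12 did not pass the test. LHY (AT1G01060), a MYB repressor expressed around dawn, stood at 56.1 and 55.3 CPM in growth light and 26.3 and 22.6 CPM in high light at 12 h. At 24 h it was at 193 and 199 CPM in growth light and 265 and 260 CPM in high light. High light was below growth light at 12 h and above it at 24 h, with a light effect that went from -1.19 to 0.42 (change 1.61, SE 0.16, adjusted p = 3.68e-06). Its partner CCA1 (AT2G46830) was at 35.6 and 31.5 CPM in growth light and 20.23 and 21.2 CPM in high light at 12 h. Levels at 24 h were 104 and 114 CPM in growth light and 143 and 128 CPM in high light. It showed the same reversal without overlap, and its change was 1.01 (SE 0.13, adjusted p = 6.41e-05). The related factors RVE8 (AT3G09600) and RVE1 (AT5G17300) changed by 0.75 and 0.77.

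Among the genes with a lower light effect at 24 h were several evening genes. FKF1 (AT1G68050), a blue light receptor of the flowering pathway, read 31.3 and 39.3 CPM in growth light and 34.1 and 36.4 CPM in high light at 12 h, and 6.46 and 9.09 CPM in growth light and 2.24 and 3.37 CPM in high light at 24 h. The lights overlapped at 12 h and were apart at 24 h, and the change was -1.46 (SE 0.24, adjusted p = 0.000431). ELF4 (AT2G40080), of the evening complex, stood at 32.4 and 32.2 CPM in growth light and 41.8 and 39.8 CPM in high light at 12 h. The 24 h levels were 18.8 and 20.9 CPM in growth light and 12.3 and 13.4 CPM in high light. High light went from above to below growth light, for a change of -0.97 (SE 0.15, adjusted p = 0.000259). TOC1 (AT5G61380), which represses the morning genes, changed by -0.40, and its relative PRR3 (AT5G60100) by -0.78. PRR7 (AT5G02810), which is expressed earlier in the day, changed by -0.93 and CHE (AT5G08330), which binds the CCA1 promoter, by -1.04. GI (AT1G22770), an evening protein that acts with FKF1, changed by -1.03, a call lost without library 1 of high light at 24 h (adjusted p = 0.0634). The 7 higher calls became 4 without library 2 of growth light at 12 h, library 1 of high light at 12 h or library 1 of high light at 24 h. At 6 h LHY was at 192 and 171 CPM in growth light and 49.4 and 60.7 CPM in high light, and at 48 h at 173 and 148 CPM against 94.2 and 112 CPM, so that high light was lower at both of these times. High light was also lower at 72 h (150.5 and 140.8 CPM against 166.4 and 178.3 CPM in growth light). It was higher at 0.5 h (318 and 335 CPM against 238 and 273 CPM).

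The evening element AAATATCT, the sequence that morning MYB factors are known to bind, was searched on both strands of the same promoter windows and was found in 4.79% of all promoters and in 9 of 28 clock gene promoters (32.1%). The clock promoter printed was picked only among members with a lower light effect at 24 h past the test whose window holds the element. Of these the evening gene FKF1 had the largest change. Its promoter lies at chr1:25508389-25508638 on the plus strand, with its 2 matches in capitals.
FKF1: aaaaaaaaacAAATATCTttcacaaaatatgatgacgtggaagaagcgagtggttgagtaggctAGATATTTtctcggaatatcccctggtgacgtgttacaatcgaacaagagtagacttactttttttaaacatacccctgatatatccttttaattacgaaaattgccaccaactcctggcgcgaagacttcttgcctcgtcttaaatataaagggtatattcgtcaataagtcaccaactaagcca

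**Figure D5:**
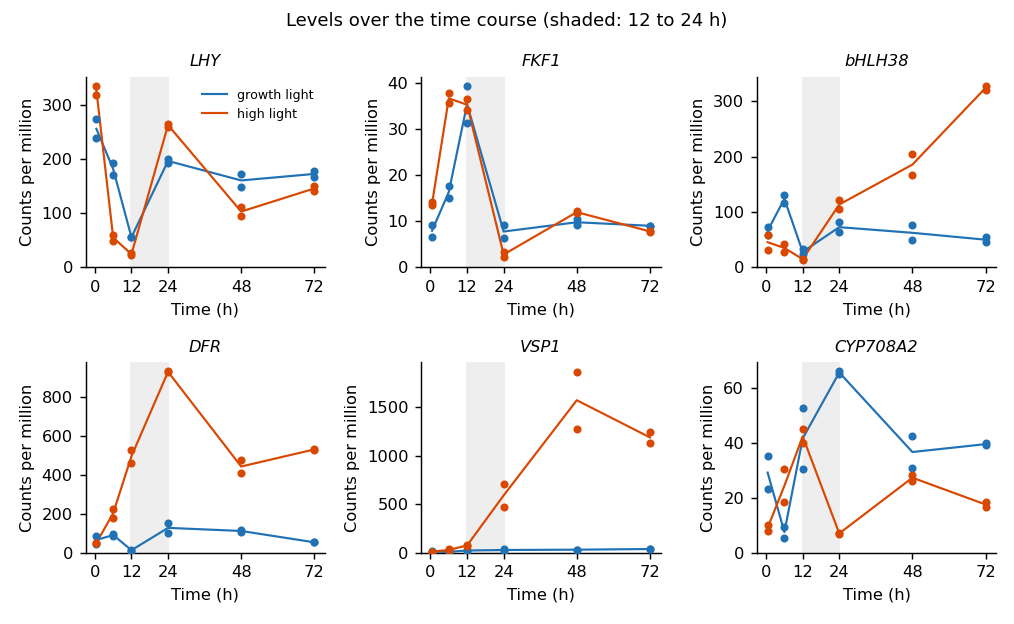
Level in CPM of LHY, FKF1, bHLH38, DFR, VSP1 and CYP708A2 in each library from 0.5 to 72 h, growth light in blue and high light in orange, with the interval from 12 to 24 h shaded. LHY in high light crosses from below to above growth light inside the shaded interval, and CYP708A2 falls to 7.09 and 7.04 CPM in high light at 24 h.

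Of 17 iron genes 7 had a higher and 1 a lower light effect at 24 h. The closely related factors bHLH38, bHLH100 and bHLH101, which switch on iron uptake, were below growth light at 12 h, and bHLH38 and bHLH100 were above it at 24 h. bHLH38 (AT3G56970) read 23.7 and 32.5 CPM in growth light and 14.1 and 15.96 CPM in high light at 12 h, and 81.7 and 63.6 CPM in growth light and 106 and 121 CPM in high light at 24 h. Both lights moved up, high light by more, and the order of the lights reversed (change 1.54, SE 0.35, adjusted p = 0.00487). In growth light bHLH38 had been at 73.7 and 59.0 CPM at 0.5 h and 116 and 131 CPM at 6 h. Its level was lowest at 12 h in both lights. bHLH100 (AT2G41240) stood at 30.6 and 42.4 CPM in growth light and 17.2 and 18.1 CPM in high light at 12 h. At 24 h it was at 93.3 and 67.9 CPM in growth light and 113 and 128 CPM in high light. Its light effect went from -1.05 to 0.58 (change 1.63, SE 0.32, adjusted p = 0.00178), and that of bHLH101 (AT5G04150) from -1.70 to 0.27, which did not pass the test at 24 h (change 1.98, SE 0.31, adjusted p = 0.00029). BTS (AT3G18290), a ubiquitin ligase that restrains the response, changed by 0.74, and FRO3 (AT1G23020), a mitochondrial iron reductase, by 0.76. The calls also included genes of ferritins, which store iron, and these went in opposite directions. With single libraries left out, the change was 1.11 to 1.60 for FER1 (AT5G01600). For FER3 (AT3G56090), the 1 lower gene, it was -0.48 to -0.37. Between 12 and 24 h 13 of the 17 rose in growth light and 13 in high light. bHLH38 and bHLH39 are near copies, so that their separate levels are uncertain.

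Among the 10 largest falls of genes with a mean of at least 5 CPM in a group and one sign in all 16 combinations of libraries, 5 were genes of 2 triterpene clusters on chromosome 5, which are expressed in roots. The largest fitted fall lay outside them, in AT5G04120, annotated as a phosphoglycerate mutase (-5.55, and -9.77 to -3.60 with single libraries left out). Its size is uncertain, since the gene had only 5 counts in high light at 24 h. Levels at that time were 14.6 and 4.69 CPM in growth light and 0.204 and 0 CPM in high light. Its change from 12 to 24 h within high light did not pass the test (adjusted p = 0.119). AT5G46890 (-4.19), AT5G46900 (-3.87) and AT1G14960 (-3.71) were also outside the 2 clusters. In the thalianol cluster (19428888 to 19461706, TAIR10.1) CYP708A2 (AT5G48000), the thalianol hydroxylase, was at 52.9 and 30.5 CPM in growth light and 39.9 and 45.1 CPM in high light at 12 h. Levels at 24 h were 66.4 and 65.2 CPM in growth light and 7.09 and 7.04 CPM in high light. The lights overlapped at 12 h and were far apart at 24 h, for a change of -3.24 (SE 0.34, adjusted p = 5.63e-06). Its neighbours in the cluster, CYP705A5 (AT5G47990), the acyltransferase gene AT5G47980 and the thalianol synthase gene THAS1 (AT5G48010, chosen after its values were seen), changed by -3.49, -3.22 and -2.56. In the marneral cluster (17023502 to 17058245) CYP705A12 (AT5G42580) was at 3.81 and 1.64 CPM in growth light and 2.75 and 3.85 CPM in high light at 12 h, and at 6.90 and 6.26 CPM in growth light and 0.367 and 0.268 CPM in high light at 24 h. Its change was -4.62, that of CYP71A16 (AT5G42590) was -3.73, and that of the marneral synthase gene MRN1 (AT5G42600, chosen after its values were seen) was -3.39, lost without library 2 of high light at 12 h (adjusted p = 0.0511). The tested genes nearest to the clusters had changes between that of RABA4C (-0.24) and that of AT5G42570 (0.26), none past the test, except for the acyltransferase gene AT5G47950 at -1.16, lost without library 1 of high light at 24 h (adjusted p = 0.0686). By 48 h of high light CYP708A2 was at 28.5 and 26.3 CPM, against 42.6 and 31.0 CPM in growth light. Low levels also occurred without high light: in growth light at 6 h CYP708A2 was at 9.56 and 5.54 CPM and CYP705A12 at 0.348 and 0.431 CPM.

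Root cell type markers had a lower light effect at 24 h too, with a rise in growth light as part of it. Of 16 markers high light had lowered 7 at 12 h and 13 at 24 h, and the change was lower in 7 and higher in 0. From 12 to 24 h, 7 rose and 0 fell in growth light, with a median of 0.64. In high light 3 rose and 5 fell, with a median of -0.40. EXPA7 (AT1G12560), an expansin of root hair cells, read 6.11 and 4.63 CPM in growth light and 3.91 and 5.03 CPM in high light at 12 h, and 8.54 and 9.54 CPM in growth light and 1.995 and 2.79 CPM in high light at 24 h. The lights overlapped at 12 h and were apart at 24 h (change -1.64, SE 0.31, adjusted p = 0.00145), while EXPA18 (AT1G62980) was lower in high light without overlap at both times and by more at 24 h (change -1.70, adjusted p = 0.00114). The radial patterning genes SHR (AT4G37650) and SCR (AT3G54220) had changes of -0.01 and 0.11 that did not pass the test. Summed over the 16 markers, the level was 1496 and 1186 CPM in growth light and 1135 and 1250 CPM in high light at 12 h, and 1888 and 1761 CPM in growth light and 934 and 1132 CPM in high light at 24 h. No marker was at 0, and the part of the share of root tissue in these results was not tested. The 7 calls became 3 without library 2 of growth light at 12 h, library 1 of growth light at 24 h or library 1 of high light at 24 h, and 2 without library 2 of high light at 12 h.

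Cell division genes, near equality at 12 h, were below growth light at 24 h. The median light effect of 27 genes went from 0.00 to -0.47, 23 were lowered at 24 h, and the change was lower in 13 and higher in 0. CYCA1;1 (AT1G44110), a cyclin of S phase to mitosis, was at 16.7 and 17.1 CPM in growth light and 19.1 and 20.3 CPM in high light at 12 h, and at 18.3 and 15.3 CPM in growth light and 10.6 and 11.6 CPM in high light at 24 h. It went from above to below growth light (change -0.82, SE 0.15, adjusted p = 0.00133), though its light effect of 0.22 at 12 h did not pass the test (adjusted p = 0.0985). PCNA1 (AT1G07370), the sliding clamp of DNA replication, stood at 27.1 and 26.4 CPM in growth light and 24.8 and 25.8 CPM in high light at 12 h, and at 22.8 and 21.7 CPM in growth light and 13.03 and 15.1 CPM in high light at 24 h. Its change was -0.58 (SE 0.12, adjusted p = 0.0031), beside -0.91 for the cyclin-dependent kinase CDKB1;2 (AT2G38620) and -0.55 for the replication licensing factor MCM3 (AT5G46280). The 13 calls became 7 without library 2 of growth light at 12 h, 5 without library 1 of growth light at 24 h, 6 without library 2 of high light at 12 h and 7 without library 1 of high light at 24 h.

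The largest single rises included 2 genes for myrosinase-binding proteins, which associate with the enzymes that release glucosinolate products. MBP1 (AT1G52040) was at 15.9 and 22.5 CPM in growth light and 14.7 and 9.87 CPM in high light at 12 h, and at 24.9 and 19.8 CPM in growth light and 166 and 155 CPM in high light at 24 h. High light lay below growth light at 12 h and far above it at 24 h (change 3.48, SE 0.27, adjusted p = 4.26e-07). MBP2 (AT1G52030) changed by 2.99. A wider set, taken after the values were seen as genes annotated as jacalin or myrosinase-binding lectins, leaned the other way, with 6 of 33 tested genes higher and 11 lower and a median change of -0.70. BGLU18 (AT1G52400), a glucosidase that releases abscisic acid from its sugar ester, and TSA1 (AT1G52410), both chosen after their values were seen, are direct neighbours by locus number and had the same course. BGLU18 read 163 and 245 CPM in growth light and 161 and 116 CPM in high light at 12 h, and 229 and 209 CPM in growth light and 1043 and 921 CPM in high light at 24 h (change 2.72, adjusted p = 4.97e-06). Under the same limits the largest fitted rise was that of NATA1 (AT2G39030), an acetyltransferase of ornithine, which had 3823 counts in high light against 3 in growth light at 24 h, a ratio of 1.25e+03 (95% exact Poisson interval 427 to 6.06e+03, counting error only). NATA1, the terpene synthase gene TPS04 (AT1G61120), RLP53, AIG1 and JRG21 were near 0 in some libraries, and each lost its call without library 2 of growth light at 12 h (adjusted p = 0.95, 0.911, 0.175, 0.0563 and 0.412). The kinase gene CIPK20 (AT5G45820) was at 19.7 and 19.7 CPM in growth light and 5.29 and 4.66 CPM in high light at 12 h, and at 27.9 and 25.4 CPM in growth light and 0.448 and 0.88 CPM in high light at 24 h. Its change of -3.32 was kept whichever library was left out.

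Of 33 abscisic acid and dehydration genes 10 had a higher light effect at 24 h and 0 a lower one, and 6 were higher without library 1 of either light at 24 h. HAB1 (AT1G72770), a phosphatase that damps abscisic acid signalling, stood at 35.6 and 35.1 CPM in growth light and 55.3 and 54.2 CPM in high light at 12 h, and at 46.6 and 48.2 CPM in growth light and 157 and 132 CPM in high light at 24 h. The lights were apart at both times and further apart at 24 h, with a change of 0.98 (SE 0.11, adjusted p = 1.53e-05). HAB2 (AT1G17550) changed by 0.57, the transcription factors ABF2 (AT1G45249) and ABF4 (AT3G19290) by 0.46 and 0.65, and CYP707A4 (AT3G19270), which breaks the hormone down, by 1.63. NCED3 (AT3G14440), of its synthesis, was raised by 2.24 and 2.94, and its change of 0.69 did not pass the test (adjusted p = 0.106). In starch metabolism GBSS1 (AT1G32900), which makes amylose, was at 111 and 111 CPM in growth light and 123 and 95.2 CPM in high light at 12 h, and at 174 and 235 CPM in growth light and 431 and 481 CPM in high light at 24 h. The lights overlapped at 12 h and were apart at 24 h (change 1.18, SE 0.20, adjusted p = 0.000573). The amylase gene BAM1 (AT3G23920) changed by 0.95 and the sucrose transporter gene SUC2 (AT1G22710) by 0.64, and of 34 starch and sugar genes 8 were higher and 3 lower. In high light 12 of the 34 rose and 12 fell between 12 and 24 h. Those 8 became 5 without library 2 of growth light at 12 h or library 1 of growth light at 24 h, and the 3 became 0 without library 2 of growth light or library 1 of high light at 24 h, and 1 without library 2 of growth light at 12 h or either high light library at 12 h.

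Of 16 small heat shock protein genes 0 were higher and 1 lower, and their median light effect was 3.40 at 12 h and 3.10 at 24 h. HSP101 (AT1G74310), a disaggregating chaperone, was raised by 2.19 and 2.08 (change -0.11, adjusted p = 0.763), and HSFA2 (AT2G26150), a heat shock transcription factor, by 4.02 and 4.69 (change 0.67, SE 0.48, adjusted p = 0.383). Of 15 heat shock factor genes 3 were higher and 0 lower, namely HSFA4A (AT4G18880, 0.71, kept whichever library was left out), HSFA1E (0.67) and HSFA8 (0.66). The calls of HSFA1E and HSFA8 were lost without library 2 of growth light at 12 h, library 1 of growth light at 24 h or library 1 of high light at 24 h, and also without library 1 (HSFA1E) or 2 (HSFA8) of high light at 12 h, with adjusted p-values up to 0.184 and 0.0808. That count was 1 without library 2 of growth light at 12 h, library 1 of growth light at 24 h or library 1 of high light at 24 h. HSP70-2 (AT5G02490) of the cytosol stood at 46.5 and 53.2 CPM in growth light and 103 and 85.0 CPM in high light at 12 h, and at 41.7 and 47.1 CPM in growth light and 218 and 184 CPM in high light at 24 h (change 1.26, SE 0.17, adjusted p = 6.33e-05). HSP90.5 (AT2G04030) of the chloroplast stood at 529 and 585 CPM in growth light and 1552 and 1544 CPM in high light at 12 h, and at 471 and 501 CPM in growth light and 842 and 878 CPM in high light at 24 h (change -0.65, SE 0.14, adjusted p = 0.00336). HSP70-2 was higher at the later time in high light and HSP90.5 lower, while growth light differed little for both. Of the cytosolic list 4 of 14 were higher and 0 lower, with a median change of 0.08, and of the chloroplast list 5 of 10 were lower and 0 higher. The 4 became 2 without library 1 or 2 of growth light at either time, library 2 of high light at 12 h or library 1 of high light at 24 h. The 5 became 3 without library 2 of high light at 12 h and 2 without library 1 of growth light at 12 h, library 2 of growth light at 24 h or library 1 of high light at 24 h. Photoprotection and photosystem II repair genes had 4 of 23 higher and 0 lower. That count was 2 without library 2 of growth light at 12 h, and 1 without library 1 of growth light at 24 h, library 2 of high light at 12 h or library 1 of high light at 24 h. ELIP2 (AT4G14690), an early light-induced protein, was raised by 6.02 and 5.91. Its relative ELIP1 (AT3G22840), which was among the higher genes, was raised by 6.43 and 7.00 (change 0.57, SE 0.17, adjusted p = 0.0273). With single libraries left out that change was 0.42 to 0.75.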

How the data were processed

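Poly(A) RNA libraries were made with a stranded kit and sequenced as single reads, per the labels. The deposited table holds whole-number counts of reads per gene, without normalization; TopHat2 2.1.1, HTSeq 0.6.0, edgeR and TAIR10 are named without roles per the submitters' processing notes, and the strand setting of the counting is not given in the sources used here. Of 33602 gene identifiers, 32835 matched the RefSeq annotation of TAIR10.1, and 6664 had 0 counts in every library.

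Counts of all 26 libraries were fitted together, with 1 mean for each of 13 groups, in edgeR 4.0.16 (R 4.3.3): trimmed mean of M-values factors (0.924 to 1.09), genes kept by filterByExpr with a minimum count of 10 (21449 genes), and glmQLFit and glmQLFTest on contrasts with 13 residual degrees of freedom. All groups shared the estimate of spread (biological coefficient of variation 6.54%). P-values were adjusted by Benjamini-Hochberg over all genes tested, with a threshold of 0.05. Standard errors are the log2 value over the square root of F. With 2 libraries per group no SD is printed; both values are.

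The genes named by rule were, past the threshold, the 10 genes with the most positive and the 10 with the most negative change. These had a mean of at least 5 CPM in 1 of the 4 groups and the same sign in all 16 combinations of 1 library per group. Added were up to 3 called members of each list with the largest change, and chosen representatives of each pathway. Not every gene named by rule is described above. Other list members are named as examples. The members, the lists and the rules were chosen with earlier results of these data known. Alternatives were other scaling factors, filters, DESeq2 1.42.0, a replicate term, the 8 libraries alone, stricter thresholds and each library left out. The fits were tested on simulated data, with 50 genes changed at each fold. They recovered 2% of 1.25-fold, 22% of 1.5-fold, 84% of 2-fold and 96% of 4-fold changes. A small change that did not pass the test may thus still be present. The number of counts limits precision, and the Poisson interval covers counting error only.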

Additional observations from a re-analysis of the deposited data

Results flagged for a closer look

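The effect of high light itself differed between 12 and 24 h for 1539 genes with a higher and 1626 genes with a lower effect at 24 h, by the test of the difference. Among the genes named by rule, these had light effects past the threshold in opposite directions at the 2 times, and the difference passed the test as well. MBP1 (change 3.48) and AT1G62420 (3.05), a gene of unknown function, were lowered at 12 h and raised at 24 h and kept the call whichever library was left out. AIG1 (4.04), a GTPase gene known from defence, did the same but lost the call without library 2 of growth light at 12 h (adjusted p = 0.0563). The clock genes LHY (1.61) and CCA1 (1.01) and the iron genes bHLH100 (1.63) and bHLH38 (1.54) also went from lowered to raised. TOC1 (-0.40), GI (-1.03) and the mitotic cyclin gene CYCB2;2 (-0.71) went from raised to lowered. CYCB2;2 lost the call without library 1 of growth light at 24 h (adjusted p = 0.0614), and GI without library 1 of high light at 24 h (adjusted p = 0.0634). Single libraries were not screened as outliers, since each group has 2.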

How the results depend on the processing

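No gene named by rule that passed the test changed sign under an alternative, but the balance of higher and lower genes turned around with genes kept at 1 CPM or more in 2 libraries (1845 higher, 1497 lower), with the 8 libraries alone and at an adjusted p below 0.01, among others. The counts of genes with a higher and a lower light effect at 24 h were 718 and 680 at an adjusted p below 0.01, and 219 and 492 with a 2-fold change required. The count of genes that changed in growth light between 12 and 24 h was 1474 at an adjusted p below 0.01. With the 2-fold requirement 1285 genes changed in high light between 12 and 24 h and 341 in growth light, and high light differed from growth light in 1994 genes at 12 h and 3126 at 24 h. Leaving out 1 library gave 809 to 1492 higher and 801 to 1473 lower genes, and 1230 to 2962 genes that changed in growth light, the lowest without library 2 of growth light at 12 h and 1552 without library 1 of growth light at 24 h. Between 50% (without library 2 of high light at 12 h) and 96.6% (replicate term) of the calls were shared with an alternative other than the stricter thresholds. DESeq2 called 1112 higher and 1403 lower, and the fit to the 8 libraries alone 1429 and 1383. Of 139 named genes past the threshold 74 stayed past it whichever library was left out, and 65 lost it at least once. The labels give the groups the same replicate numbers, and with the replicate block the counts were 1520 and 1604. Differences between libraries 1 and 2 correlated between groups at -0.225 to 0.215, so that the samples share a number and no pairing is taken from it. Precision is limited by 2 libraries per group and, for genes near 0, by counts of 3 or fewer.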

Other observations

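Glucosinolate genes, which make sulfur-rich defence compounds of cabbage relatives, were lowered further at 24 h. Of 28 genes 11 had a lower and 1 a higher light effect at 24 h, and the median light effect went from -0.38 to -0.63. MYB28 (AT5G61420), the factor that switches on the aliphatic pathway, was at 88.4 and 97.2 CPM in growth light and 61.0 and 60.6 CPM in high light at 12 h, and at 84.6 and 94.2 CPM in growth light and 40.9 and 44.2 CPM in high light at 24 h. High light lay below growth light at both times and lower at 24 h (change -0.46, SE 0.10, adjusted p = 0.00537). IMD1 (AT5G14200), which elongates the methionine chain, and BASS5 (AT4G12030), a chloroplast transporter of its precursors, changed by -0.55 and -0.52. The 11 calls became 5 without library 1 of growth light at 12 h, library 2 of growth light at 24 h, library 1 of high light at 12 h or library 1 of high light at 24 h, and 7 without library 2 of either high light group.

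Of 37 antioxidant enzyme genes 7 had a higher and 2 a lower light effect at 24 h, and of 12 genes of the mitochondrial stress response 3 had a higher and 0 a lower one. The 7 became 4 without library 1 of growth light at 24 h and 3 without library 2 of high light at 12 h. AOX1A (AT3G22370), the alternative oxidase of mitochondria, stood at 43.2 and 38.3 CPM in growth light and 141 and 123 CPM in high light at 12 h, and at 35.2 and 40.1 CPM in growth light and 259 and 207 CPM in high light at 24 h. The lights did not overlap at either time (change 0.93, SE 0.16, adjusted p = 0.000805). NDA2 (AT2G29990), an alternative NADH dehydrogenase, was at 8.77 and 8.83 CPM in growth light and 9.16 and 8.33 CPM in high light at 12 h, and at 9.46 and 9.01 CPM in growth light and 19.9 and 16.9 CPM in high light at 24 h, overlapping at 12 h and apart at 24 h (change 1.0, SE 0.16, adjusted p = 0.000445). CAT2 (AT4G35090), the main leaf catalase, changed by 0.75 and DHAR1 (AT1G19570), which regenerates ascorbate, by 0.72. The 2 lower genes were MDAR3 (AT3G09940, -1.05), another enzyme of ascorbate recycling, which lost the call without library 1 of growth light at 12 h, library 1 of either light at 24 h or library 2 of high light at 12 h (highest adjusted p = 0.118, without the latter), and 2CPB (AT5G06290, -0.45), a chloroplast peroxiredoxin, which kept it. The transcription factor BZIP60 (AT1G42990), which answers misfolded protein in the endoplasmic reticulum, and its target NAC103 (AT5G64060) changed by 0.60 and 1.29. Stomatal lineage genes had 0 calls among 10 at an adjusted p below 0.05 in edgeR.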
